A study of Mus musculus with 2 samples.

Results

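Of the 31053 genes in the deposited count matrices, 9 belong to the neuronal microtubule system as followed here, namely the stathmins Stmn1, Stmn2, Stmn3 and Stmn4, the tubulins Tuba1a, Tubb2a, Tubb2b and Tubb3, and the microtubule-associated protein gene Map1b. The rule took them by gene family, as proteins that build microtubules or set how stable they are, and was written with earlier results of these data known. Each was followed across the 9 neuronal subclass labels that held at least 50 nuclei, with the nuclei labelled Unknown and the nuclei labelled Micro-PVM (microglia and perivascular macrophages) as background.

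The nuclei came from mouse cerebral cortex at 7 days after mild traumatic brain injury (mTBI), from the injured side. All animals carried Atf3-CreER:+/wt and SUN-SfGFP:+/wt, a tamoxifen-inducible Cre under control of the injury-response gene Atf3 and a Cre-dependent fluorescent protein on the nuclear envelope. Tamoxifen was given on days 4 and 5 after injury, and nuclei sorted as GFP+ were sequenced by a droplet 3′ method. One library came from male and one from female mice, each from 4 animals over 7 weeks old by the labels. Every nucleus in both libraries is thus from an injured animal and passed the same sort, so no level here can be set against an uninjured neuron, and sex and library cannot be told apart. The sex field of the second library reads male while its title marks it as female. Xist was at 1672 CPM (UMIs per 1000000 UMIs of the sum) there and at 2.02 CPM in the library titled male, and the Y-linked Uty at 0.290 and 131 CPM, so the title was followed. Where a pair of values stands together, the male library is given first.

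Microtubules are hollow polymers of alpha- and beta-tubulin that carry axonal transport and that a growing axon must extend. Stathmins bind free tubulin dimers and promote disassembly; STMN2 (SCG10) is enriched in growth cones and is widely used as a marker of regenerating axons. MAP1B binds the polymer, is abundant in growing axons and falls as the cortex matures, and TUBA1A, TUBB2A, TUBB2B and TUBB3 are the neuronal tubulins of the same growth period.

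The members differ in how well a 3′ read can tell them apart. The 4 stathmins share a tubulin-binding domain, and the 60-base coding stretch in which Stmn1, Stmn3 and Stmn4 match Stmn2 best is given here (GENCODE transcripts, GRCm38), with bases that differ from Stmn2 in capitals.
Stmn2: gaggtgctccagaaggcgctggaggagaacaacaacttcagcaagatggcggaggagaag
Stmn1: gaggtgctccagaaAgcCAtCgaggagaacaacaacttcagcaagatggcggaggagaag
Stmn3: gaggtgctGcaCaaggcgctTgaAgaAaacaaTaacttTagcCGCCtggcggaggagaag
Stmn4: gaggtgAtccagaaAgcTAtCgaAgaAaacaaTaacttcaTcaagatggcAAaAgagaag
The stretch lies in exon 4 of Stmn2 (chr3:8554846-8554905, plus strand), exon 4 of Stmn1 (chr4:134472858-134472917, plus), exon 4 of Stmn3 (chr2:181307294-181307353, minus) and exon 5 of Stmn4 (chr14:66357900-66357959, plus). Stmn1 differed from Stmn2 at 4 of its 60 bases, Stmn3 at 11 and Stmn4 at 12. Over the whole coding sequence the closest pair, Stmn2 and Stmn3, was identical at 74.0% of aligned positions, and no stathmin pair shared a single 91-base window.

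Tubulin coding sequences are closer to each other. The last 60 coding bases of the 3 beta-tubulin members follow, which encode the acidic tail where the isotypes differ most, with bases that differ from Tubb2a in capitals.
Tubb2a: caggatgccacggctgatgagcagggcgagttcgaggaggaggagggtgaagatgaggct
Tubb2b: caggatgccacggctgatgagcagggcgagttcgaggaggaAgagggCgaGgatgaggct
Tubb3: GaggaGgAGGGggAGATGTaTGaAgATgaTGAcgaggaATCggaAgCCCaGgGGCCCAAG
They are in exon 4 of each gene, at chr13:34074471-34074530 (minus strand) for Tubb2a, chr13:34127474-34127533 (minus) for Tubb2b and chr8:123421620-123421679 (plus) for Tubb3. Tubb2a and Tubb2b differed at 3 of these bases, were identical at 96.5% of coding positions and shared 570 of the 1245 windows of 91 bases. Tuba1a stood at 98.3% against Tuba1b, which is no member. Coding reads of such copies can be dropped or divided between them, and the counts are uncertain to that extent. These values cover coding bases alone, while 3′ reads also fall after the stop. There the tails of Tubb2a and Tubb2b are 197 and 726 bases long, and Tuba1a and Tuba1b are identical at 49.3%. How many reads fell in either part was not tested.

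Gene models add to this. Tubb3 lies wholly inside the same-strand protein-coding model Gm20388 (chr8:119910841-124345722), which held 1958 and 3660 UMIs in the 2 libraries. Tuba1a overlaps the same-strand model Gm49450 over 3715 of its 3867 bases, and that model held 0 UMIs in both. Cell Ranger counts a read only where it fits 1 gene, and whole transcripts with their introns were counted here. How far this lowered Tubb3 and Tuba1a was not tested. The genes also differ in length, from 95095 bases for Map1b and 52247 for Stmn2 to 3719 for Tubb2b, so levels are compared between nuclei for 1 gene and not between genes.

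The libraries held 11007313 UMIs in 4044 called barcodes (male) and 23202158 UMIs in 4214 (female), and 1 barcode sequence was in both. A label's level is its UMIs summed over the nuclei of 1 library, as CPM. Subclass labels were transferred by the authors from a reference atlas using these same counts. Gad2 marked the 3 inhibitory labels (219 to 657 CPM against 0 to 30.1 CPM in the 6 excitatory labels), and Cux2, Rorb and Foxp2 were present in L2/3 IT, L4/5 IT and L6 CT. Cux2 was also at 303 and 319 CPM in nuclei labelled Pvalb, above its 218 and 203 CPM in L2/3 IT CTX-2. Otof stood at 2.41 and 1.81 CPM in L2/3 IT CTX-1 and at 16.4 and 46.9 CPM in L2/3 IT CTX-2. Of the L5 PT markers, Fezf2 was at 3.06 and 5.78 CPM in L5 PT. Bcl11b was at 61.9 and 42.5 CPM there, against 110 and 117 CPM in L6 CT and 356 and 335 CPM in Unknown. Pvalb, however, was at 1.58 and 0.516 CPM in nuclei labelled Pvalb and Sst at 3.77 and 0 CPM in nuclei labelled Sst, so these names stand for the transferred label. Microglial markers summed to between 304 and 1788 CPM in the neuronal sums, highest in L2/3 IT CTX-2 and L6 IT, against 6432 and 6403 CPM in Micro-PVM, and 10 of 10 were called lower in neurons.

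Stmn2 was a neuronal transcript with a wide range. In nuclei labelled Pvalb it stood at 662 and 618 CPM, and in L5 PT, the deep-layer cells that project out of the cortex, at 473 and 412 CPM. L6 IT followed at 442 and 346 CPM, Vip at 406 and 361, Sst at 372 and 314, L6 CT at 315 and 325. The lowest neurons were L2/3 IT CTX-1 at 329 and 244 CPM, L4/5 IT at 250 and 239, and L2/3 IT CTX-2 at 180 and 129. The values of Pvalb lay above those of every other label in both libraries, and those of L2/3 IT CTX-2 below all other neurons, while each pair of neighbours between L5 PT and L4/5 IT overlapped.

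Unknown nuclei, in contrast, held Stmn2 at 16.0 and 17.0 CPM, and Micro-PVM nuclei at 36.5 and 19.1 CPM. Barcodes not called as nuclei and holding at most 100 UMIs, a measure of free RNA in the droplets, held it at 230 and 236 CPM, which is about the level of L4/5 IT.

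Map1b followed a similar order among neurons. Its level was 1900 and 1836 CPM in Pvalb, 1763 and 1675 in L5 PT and 1561 and 1208 in L6 IT. Sst held 1191 and 1091 CPM, L2/3 IT CTX-1 966 and 953, L6 CT 936 and 907, L2/3 IT CTX-2 949 and 761, Vip 811 and 767, and L4/5 IT 693 and 753. Pvalb and L5 PT did not overlap each other or any other label. Over the 18 sums of neuronal labels, with each library centred on its own mean, log2 levels of Map1b and Stmn2 had a Pearson r of 0.75; sums of a library share its depth and its animals, and the value is a description.

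In the Unknown nuclei, where Stmn2 was low, Map1b stood at 1076 and 1084 CPM, in the middle of the neuronal range. Micro-PVM nuclei held 151 and 101 CPM and near-empty barcodes 654 and 649 CPM.

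Stmn4, a neural stathmin anchored to membranes, overlapped between labels and was higher in the male library in each of them. Levels ran from 168 CPM in L4/5 IT to 318 CPM in L2/3 IT CTX-1 among male nuclei, and from 111 CPM in Vip to 205 CPM in L6 IT among female nuclei. Unknown nuclei held 64.9 and 47.3 CPM and Micro-PVM 36.5 and 12.4 CPM. Near-empty barcodes held 321 and 177 CPM, above the 267 and 169 CPM of pooled neurons. All neighbouring neuronal labels overlapped, and all neurons lay above Unknown.

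Stmn3, also membrane-anchored, ranged from 45.2 to 110 CPM in male and from 31.2 to 74.3 CPM in female neurons. Near-empty barcodes held 66.3 and 68.5 CPM, against 73.7 and 61.0 CPM in pooled neurons. It was at 42.5 and 18.3 CPM in Unknown and at 10.2 ± 2.62 CPM (SD, n = 2 libraries) in Micro-PVM. Its order of labels did not hold: every neighbouring pair of neuronal labels overlapped.

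Stmn1, the cytosolic stathmin that dividing and immature cells express most, was higher in excitatory than in inhibitory labels. The 6 excitatory labels held 26.8 to 65.3 CPM and the 3 inhibitory labels 0 to 21.4 CPM, without overlap. Vip had 0 UMIs of it among 123248 in the male sum and 2 in the female sum. Unknown nuclei held 12.8 and 10.1 CPM, and Micro-PVM 16.8 and 11.9 CPM, within the inhibitory range. Near-empty barcodes held 29.0 and 21.7 CPM, against 30.4 and 26.3 CPM in pooled neurons.

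**Figure D1:**
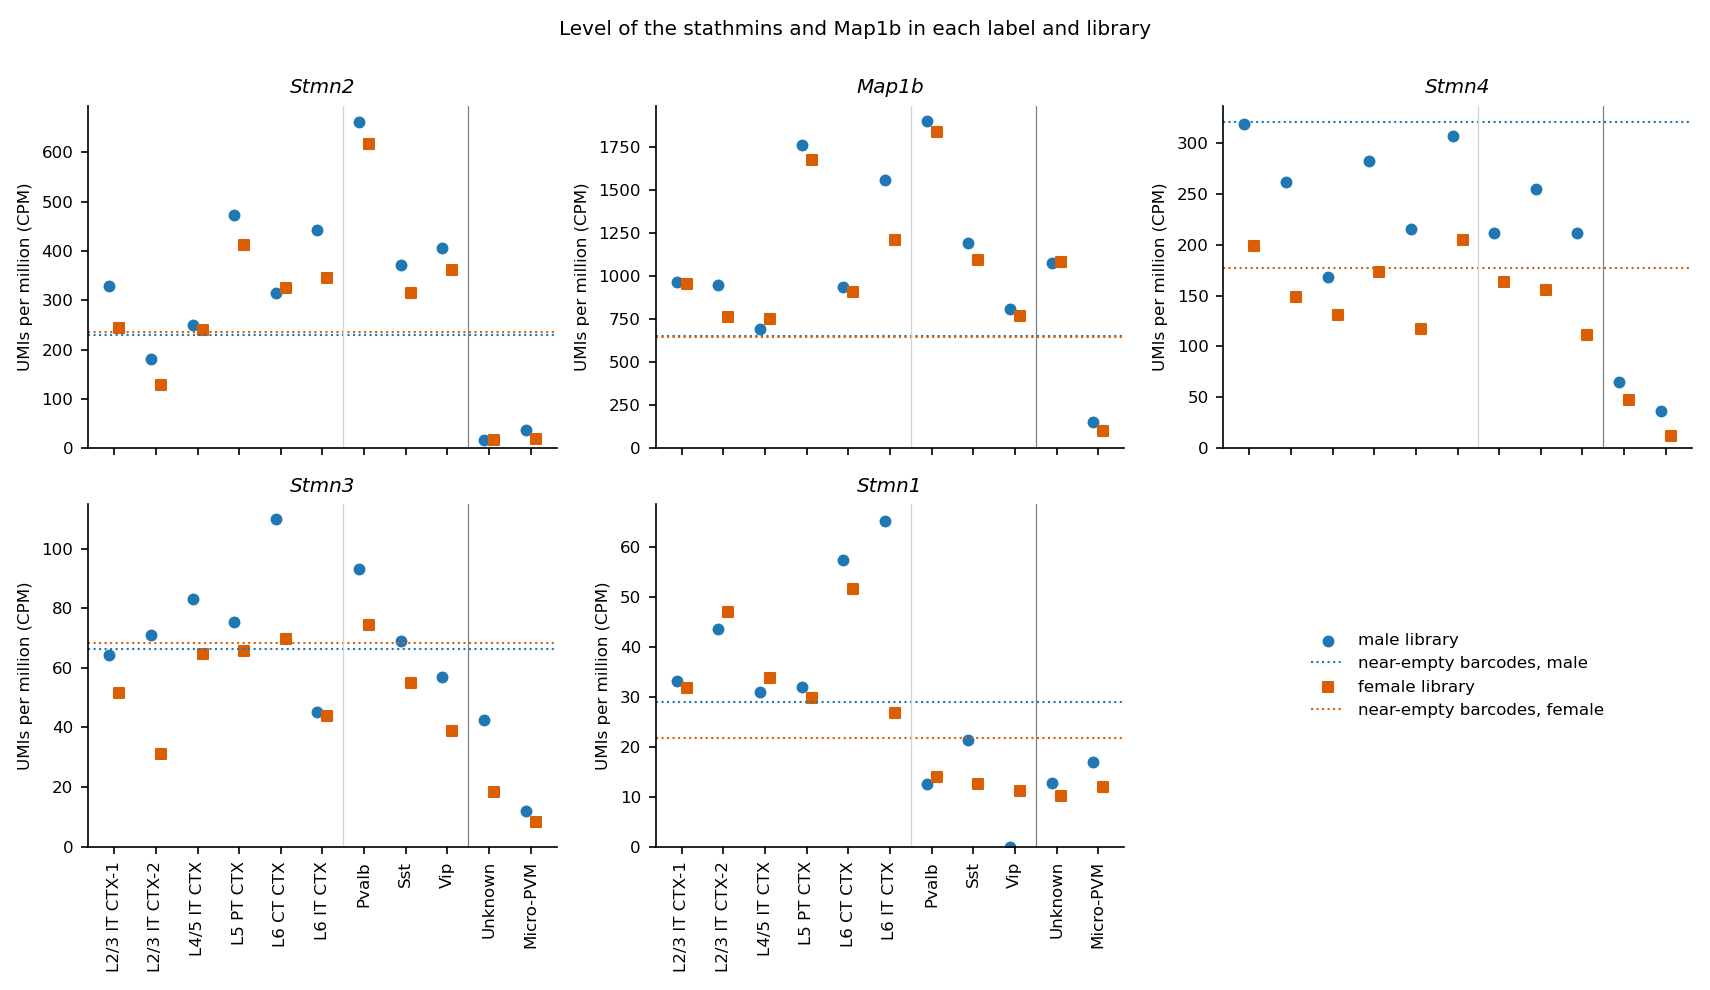
Level of each stathmin and of Map1b (CPM of the summed nuclei, linear axis from 0) in 9 neuronal labels, Unknown and Micro-PVM; circles are the male and squares the female library, and dotted lines mark barcodes with at most 100 UMIs. Stmn2 drops to 16.0 and 17.0 CPM in Unknown while Map1b stays at 1076 and 1084 CPM, and Stmn1 separates excitatory from inhibitory labels.

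Tubulin UMIs were few. Tuba1a, the main alpha-tubulin of young neurons, pooled to 8.39 CPM (50 UMIs) and 8.79 CPM (97 UMIs) over all neurons. Tubb2a pooled to 6.88 CPM (41 UMIs) and 7.88 CPM (87 UMIs), Tubb2b to 3.53 CPM (21 UMIs) and 3.26 CPM (36 UMIs), and Tubb3 to 6.04 CPM (36 UMIs) and 4.08 CPM (45 UMIs). In Micro-PVM the same genes were at 0.249 to 3.21 CPM. Near-empty barcodes held 4.14 to 24.8 CPM of them (male) and 3.26 to 7.61 CPM (female), from 2 to 12 UMIs a gene, so neurons were not above free RNA for any of the 4 in the male library.

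On so few UMIs nearly all neighbours in the order of labels overlapped. Each of the 4 genes had at least 1 neuronal label with 0 UMIs in 1 library, such as Tubb2a in Vip, where both libraries had 0 UMIs. Pvalb nuclei held 7 and 27 UMIs of Tuba1a (11.0 and 13.9 CPM), against 8 and 31 in L5 PT (4.90 and 8.97 CPM). Tubb2b and Tubb3 were too low for the count test, which thus covered 7 of the 9 members in comparisons of labels.

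**Figure D2:**
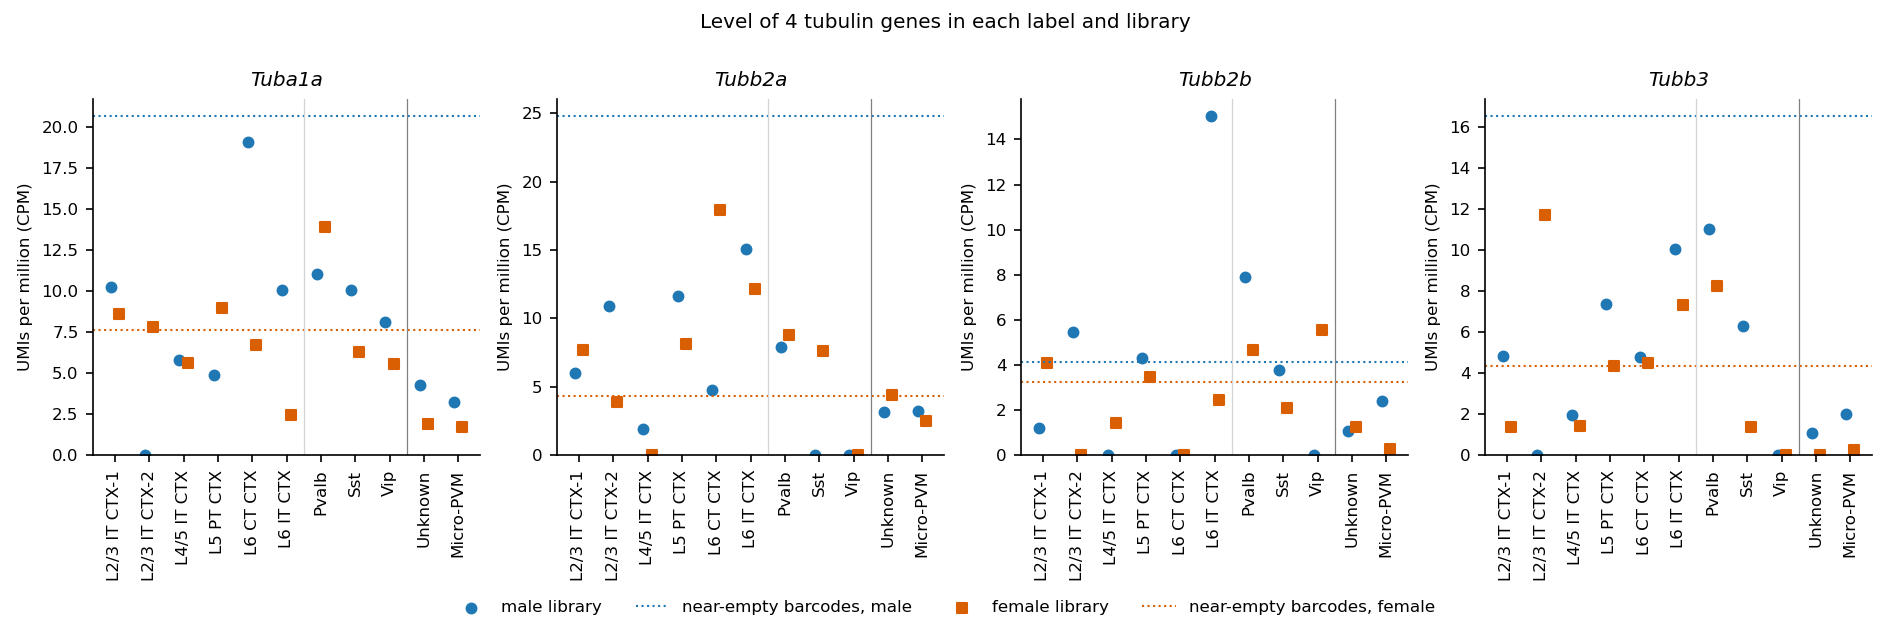
Level of Tuba1a, Tubb2a, Tubb2b and Tubb3 (CPM, linear axis from 0, scale differing between panels) by label; circles are the male and squares the female library, and dotted lines mark barcodes with at most 100 UMIs. Points scatter between 0 and 19.1 CPM, and for each gene at least 1 neuronal label lies at 0 in 1 library or both.

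Shares of nuclei separated Stmn2 from Map1b as well. Depth differs, with a median of 1742 and 3710 UMIs per labelled nucleus, so nuclei with at least 1500 UMIs were also thinned to 1500, and shallower ones were left out. Thinned shares thus rest on the deeper nuclei: 1165 of 1344 and 1079 of 1155 neurons, 198 of 225 and 166 of 170 Unknown nuclei, and 653 of 1690 and 2187 of 2338 Micro-PVM nuclei. The loss was largest among neurons in L2/3 IT CTX-2, with 38 and 36 of 77 nuclei left out. At that depth 39.1% of male (456 of 1165) and 37.4% of female neurons (404 of 1079) had a Stmn2 UMI. In Unknown nuclei 2.02% (4 of 198; exact 95% interval 0.553 to 5.09) and 1.81% (3 of 166; 0.374 to 5.19) had one. Micro-PVM nuclei stood at 4.75% and 2.79%. The Unknown share did not exceed that of microglia and is read as background.

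Map1b was found in 78.8% and 76.6% of thinned neurons, in 76.8% and 75.9% of Unknown nuclei and in 18.4% and 14.2% of Micro-PVM nuclei. Stmn4 was found in 34.1% and 23.4% of neurons, 10.6% and 6.63% of Unknown and 5.05% and 1.92% of Micro-PVM nuclei. Stmn3 stood at 10.3% and 9.82% in neurons against 1.23% and 1.60% in Micro-PVM. For these 4 genes the neuronal interval lay above that of Micro-PVM in both libraries. For Stmn1, Tuba1a and Tubb3 it did so in the female library only, for Tubb2a and Tubb2b in neither. Thinned shares of the tubulins, 0.556% to 1.76%, rest on 6 to 19 nuclei a library, so no change is read from them. Stmn1 was in 4.46% (52 of 1165) and 5.00% (54 of 1079) of neurons. Its male interval overlapped that of Micro-PVM, so no change shared by both libraries is read from it.

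Without thinning, 59.9% and 71.2% of neurons had a Stmn2 UMI, from 80.7% and 94.7% in Pvalb and 70.2% and 89.7% in L5 PT down to 5.78% and 10.6% in Unknown. In single nuclei the genes were combined accordingly. Both Stmn2 and Map1b were seen in 79.0% and 94.7% of Pvalb nuclei and in 69.6% and 89.0% of L5 PT nuclei. In Unknown nuclei both were seen in 5.78% and 10.6%, and Map1b without Stmn2 in 83.1% and 88.8%. No Unknown nucleus held Stmn2 without Map1b.

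**Figure D3:**
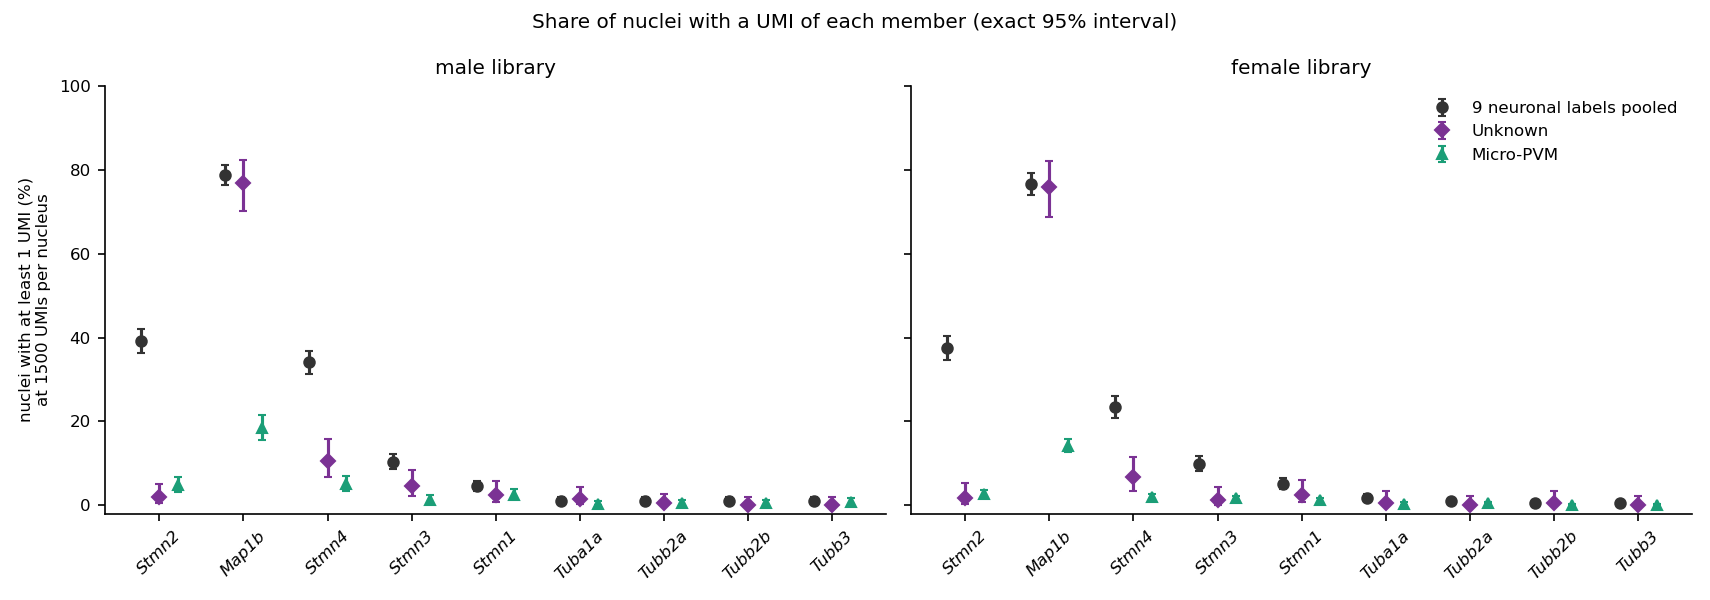
Share of nuclei with at least 1 UMI of each member after thinning to 1500 UMIs (percent, with exact 95% binomial intervals that cover counting error only), by library, for the 9 neuronal labels pooled, Unknown and Micro-PVM. Unknown nuclei lie with neurons for Map1b and with Micro-PVM for Stmn2.

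Differences between labels were tested with edgeR's quasi-likelihood test on sums of UMIs per library and label, fitted over all genes, and a gene is called where its Benjamini-Hochberg adjusted p is under 0.05. Sums rest on 2 pools of animals, so that p-values measure the spread between those 2 libraries, and nothing says how animals within a pool vary. Neurons against Micro-PVM came first, as a check that the members mark neurons. Of 10610 genes, 64.6% were called in this comparison, 29.6% higher and 35.1% lower in neurons. Of the 7 members tested, 6 were higher.

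The largest differences were those of Stmn2 (log2 fold change 3.71, SE 0.19), Map1b (3.20, SE 0.17) and Stmn4 (3.19, SE 0.30). Stmn3 was higher by 2.70 (SE 0.24), Tuba1a by 1.74 (SE 0.46) and Stmn1 by 0.93 (SE 0.26). Only 46 of the 10610 genes had a larger log2 fold change than Stmn2. Tubb2a was not called, and its fit is unstable since Vip has no UMI of it. In single libraries Stmn1 differed by 0.35 (male) and 1.05 (female). Its call was lost with the near-empty profile subtracted, with nuclei carrying 5 or more marker UMIs of the other class left out, and with thinning (adjusted p = 1, 0.079 and 1), and its sign turned with nuclei of 2 or more such UMIs left out.

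L5 PT was set against the 2 L2/3 IT labels because layer V and layer II/III neurons are the pair whose fates after this injury the study contrasts. The 2 L2/3 IT labels weighed equally, though L2/3 IT CTX-1 held 360 and 252 nuclei and L2/3 IT CTX-2 77 and 77. Both Stmn2 and Map1b were higher in L5 PT. For Stmn2, L5 PT stood at 473 and 412 CPM, L2/3 IT CTX-1 at 329 and 244 and L2/3 IT CTX-2 at 180 and 129. Part of the Stmn2 difference thus rests on the smaller L2/3 IT label, and L5 PT against L2/3 IT CTX-1 alone was not tested. Stmn2 differed by 1.16 on the log2 scale (SE 0.17, adjusted p = 3.1e-05) and Map1b by 1.01 (SE 0.15, adjusted p = 3.5e-05). In each library alone the values were 1.02 and 1.31 for Stmn2 and 0.94 and 1.07 for Map1b. These are 2 of 7 members, where 11.0% of all genes were called, 6.13% higher and 4.84% lower.

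The other 5 were not called. Stmn3 had 0.49 (SE 0.25), Stmn4 0.07 (SE 0.27) and Stmn1 -0.24 (SE 0.28), and Tuba1a (0.26) and Tubb2a (0.54) had standard errors of 0.62. In single libraries Stmn3 stood at 0.22 and 0.79, and Tuba1a at 1.25 and 0.21. Stmn2 lost its call with the near-empty profile subtracted (1.95, adjusted p = 0.11). Neither gene was called once neuronal nuclei with 2 or more microglial marker UMIs were left out, which removed 2087 of 2894 neuronal and Unknown nuclei and left values of 1.03 and 1.09.

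Inhibitory labels differed from excitatory labels in 3 of 7 members. Stmn2 was higher in inhibitory neurons by 0.67 (SE 0.10, adjusted p = 2.2e-05) and Stmn1 lower, at -1.68 (SE 0.27, adjusted p = 5.0e-05). Map1b was higher by 0.27 (SE 0.09, adjusted p = 0.034), a call that was lost without the filter on low counts (adjusted p = 0.081), with thinning, with the near-empty profile subtracted and with mixed nuclei left out. Stmn2 lost its call with the near-empty profile subtracted (0.86, adjusted p = 0.15), and Stmn2 and Stmn1 both lost theirs with nuclei of 2 or more microglial UMIs left out (0.54 and -2.87, adjusted p = 0.34 and 0.20). Among all genes 20.6% were called here, 9.87% higher and 10.8% lower. Within the libraries Stmn1 stood at -2.90 in the male, where Vip had no UMI, and at -1.41 in the female library.

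Pvalb nuclei, which held the highest Stmn2 and Map1b of all labels, were compared with all other neurons. The comparison was chosen with those levels known, so for these 2 genes the difference is a description. No p is given for them, and their passing the threshold restates that choice. Against the mean of the other 8 neuronal labels, Stmn2 differed by 1.17 (SE 0.13) and Map1b by 0.98 (SE 0.12), both past the threshold, with 16.3% of all genes called, 10.3% higher and 5.97% lower. Stmn1 at -0.92 (SE 0.32, adjusted p = 0.050) and Stmn3 at 0.57 (SE 0.20, adjusted p = 0.056) missed the threshold. Nuclei of both labels in a library come from the same animals, and with the library as a replicate block both passed it (adjusted p = 0.036 and 0.012), for 4 members called. With that block the calls over all genes also rose, from 1728 to 2254 of 10610. Tuba1a had 1.01 (SE 0.43, adjusted p = 0.12) and Tubb2a 1.32 (SE 0.75, adjusted p = 0.28). The Tubb2a value averages over labels with no UMI of it, such as Vip, and is unstable. At 7.88 and 8.78 CPM, Pvalb lay below L6 IT for Tubb2a (15.1 and 12.2 CPM). Stmn2 no longer passed with the near-empty profile subtracted (1.44). Neither Stmn2 nor Map1b passed with nuclei of 2 or more microglial UMIs left out (0.88 and 0.63).

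Unknown nuclei differed from excitatory nuclei in the stathmins. This label held 225 and 170 nuclei, which had the highest level of excitatory markers of any label (1342 and 1269 CPM in sum), including the vesicular glutamate transporter Slc17a7 at 222 and 137 CPM against 13.9 to 92.7 CPM in the excitatory labels. Atf3 UMIs were in 0.889% and 4.71% of them, below the 3.25% and 9.07% of Micro-PVM nuclei and the 59.7% and 86.0% of Pvalb nuclei. Thinned to the same depth, 0 of 198 and 0 of 166 Unknown nuclei had an Atf3 UMI, against 3.83% and 4.21% of Micro-PVM nuclei. Micro-PVM nuclei passed the same GFP+ sort, and the paper reports microglia that express Atf3, so they give no background level for Atf3. Whether the Unknown share is background was not tested.

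All 4 stathmins were lower in Unknown than in excitatory nuclei. Stmn2 stood at -3.91 on the log2 scale (SE 0.22, adjusted p = 6.7e-13), which 168 of the 10610 genes exceeded in that direction. Stmn4 had -1.67 (SE 0.29, adjusted p = 5.5e-05), Stmn1 -1.58 (SE 0.30, adjusted p = 0.00018) and Stmn3 -0.91 (SE 0.24, adjusted p = 0.0046). Map1b had 0.25 (SE 0.13, adjusted p = 0.16) and was not called, and stood at -0.078 with nuclei of 2 or more microglial UMIs left out. The 4 calls are among 7 members, where 34.8% of all genes were called, 19.3% higher and 15.5% lower.

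In single libraries Stmn2 stood at -4.06 and -3.77 and Stmn3 at -0.56 and -1.34. Stmn2 and Stmn4 kept their calls in all alternatives tried. Stmn3 lost its call with the near-empty profile subtracted and with nuclei of 2 or more microglial UMIs left out (adjusted p = 0.41 and 0.053), and Stmn1 in the second of these (adjusted p = 0.73). Microglial markers summed to 486 and 832 CPM in Unknown, within the 304 to 1788 CPM of the excitatory labels, and edgeR called 0 of the 10. Astrocyte markers summed to 321 and 283 CPM in Unknown and to 34.4 to 449 CPM in excitatory labels, with 2 of 2 tested called higher, and 2 of 4 inhibitory markers were also called higher. Oligodendrocyte markers summed to 144 and 169 CPM in Unknown and to 49.3 to 169 CPM in excitatory labels, with 1 of 2 tested called higher. The part of these other cell types in the stathmin values was not tested.

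The deposited clusters split Unknown nuclei into cluster 7 (190 and 143 nuclei) and the smaller cluster 23 (35 and 27). Cluster 7 held Stmn2 at 16.7 and 16.6 CPM and Map1b at 1093 and 1086 CPM. Cluster 23 held 0 and 2 UMIs of Stmn2 and Map1b at 720 and 1041 CPM. Both were thus low in Stmn2 and held Map1b at neuronal levels. Stmn2 in Unknown amounted to 6.94% and 7.22% of its level in near-empty barcodes, and microglial markers in Unknown to 21.5% and 33.0% of theirs; what set this gap was not tested.

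**Figure D4:**
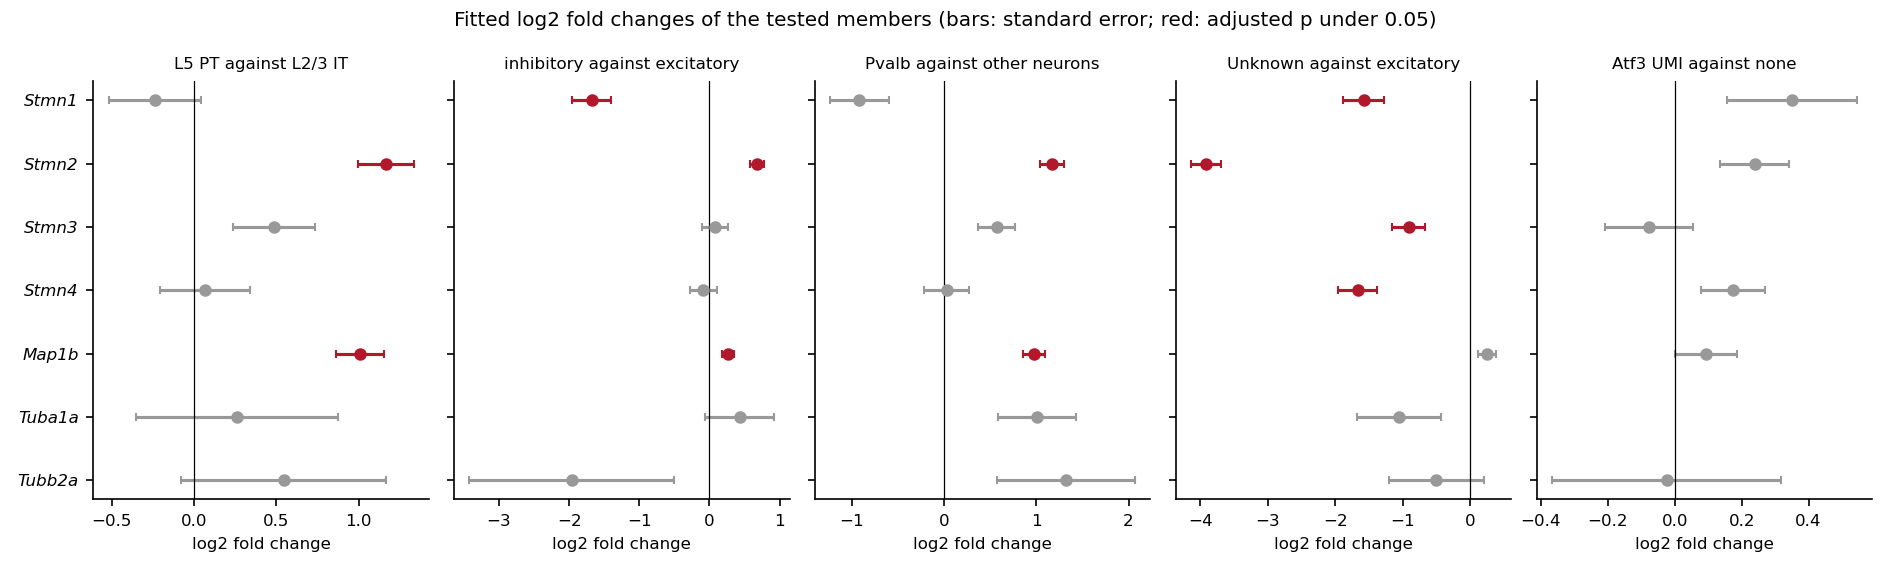
Fitted log2 fold changes of the 7 tested members (6 in the last panel) for 5 comparisons, with standard errors; red points have an adjusted p under 0.05, and each panel has its own linear scale. Stmn2 and Map1b are both red in the first 3 panels, and in the fourth Stmn2 is red at -3.91 and Map1b grey at 0.25. The Pvalb panel was chosen with the levels of Stmn2 and Map1b known, so their red there restates that choice.

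Whether the members went with Atf3 itself was asked within labels, comparing nuclei with at least 1 Atf3 UMI with those without in the same library and label (34 sums). None of the 6 members tested was called by edgeR or by DESeq2, where 3.52% of 9229 genes were called, 0.975% higher and 2.55% lower. At an unadjusted p under 0.05, 1311 genes and 1 member passed, and the member was Stmn2 at 0.24 (SE 0.10, adjusted p = 0.24).

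Pooled over labels, Stmn2 stood at 470 CPM in male nuclei with an Atf3 UMI and 380 CPM in those without, and at 451 and 287 CPM in female nuclei. Labels with much Atf3 weigh more in those pools. Within labels Stmn2 was higher with Atf3 in 5 of 8 male and 8 of 9 female labels, and Map1b in 4 of 8 and 6 of 9. Nuclei with an Atf3 UMI were also deeper in all 18 library and label pairs, such as 4836 against 3438 UMIs (medians) in male Pvalb nuclei, and the part of depth was not tested. Stmn1 had 0.35 (SE 0.19), Stmn4 0.17 (SE 0.09), Map1b 0.09 (SE 0.09), Stmn3 -0.08 (SE 0.13) and Tubb2a -0.02 (SE 0.34). The fitted value of Stmn1 lay above its plain means in both single libraries (0.03 and -0.21), so no rise is read from it.

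The libraries differed most for Stmn4. It was higher in the male library in 9 of 9 neuronal labels, with a log2 ratio of male over female between 0.36 and 0.92 and a median of 0.70. Stmn3 was also higher in 9 of 9, with a median of 0.33, Stmn2 in 8 of 9 with 0.20 and Map1b in 8 of 9 with 0.07. Over 6295 genes with at least 20 CPM in pooled neurons the ratio had a median of 0.12 and a range of -0.27 to 0.65 between the 5th and 95th percentiles. Near-empty barcodes held Stmn4 at 321 and 177 CPM. With 1 library a sex, no test was made, and sex, library and depth cannot be told apart.

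**Figure D5:**
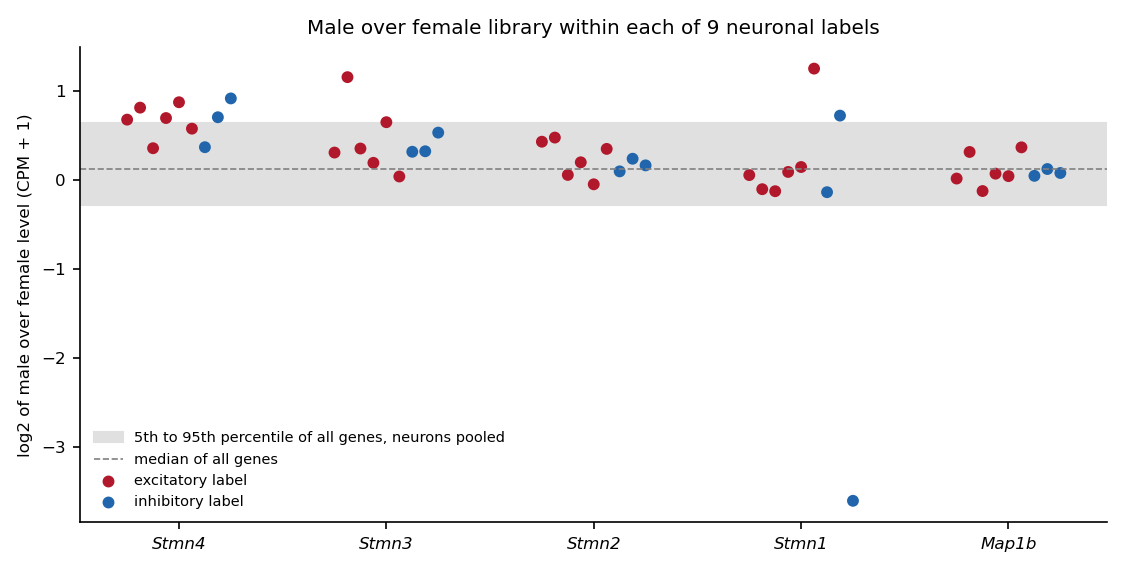
Log2 ratio of the male over the female level (CPM + 1) of each stathmin and Map1b in 9 neuronal labels (6 excitatory in red, 3 inhibitory in blue); the band spans the 5th to 95th percentile of 6295 genes in pooled neurons and the dashed line their median. The 9 Stmn4 points span 0.36 to 0.92, and the low Stmn1 point is Vip with 0 UMIs in the male library.

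Other microtubule genes were counted from lists by function. Of 34 microtubule-associated protein genes 33 were tested, and 3 were higher and 2 lower in L5 PT than in L2/3 IT. Called genes made up 15.2% of the list for L5 PT, 36.4% for inhibitory neurons, 24.2% for Pvalb, 45.5% for Unknown and 87.9% against Micro-PVM, beside 11.0%, 20.6%, 16.3%, 34.8% and 64.6% of all genes. The largest rises were in Nav1 (1.51), a neuron navigator that tracks growing ends, and Map2 (1.17), the dendritic MAP, and the falls were in Nav3 (-1.16) and the plus-end protein gene Clip1 (-0.67). In Pvalb 7 were higher, led by Dpysl3 (1.25), a collapsin response mediator, and Nav1 (1.08), and 1 was lower, Map7 (-0.88). Inhibitory neurons had 9 higher, led by Dpysl5 (2.32) and Dpysl3 (1.94), and 3 lower, led by Nav3 (-0.80) and Map7 (-0.76).

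Unknown nuclei had 7 higher, led by Tppp (1.45), a tubulin polymerization-promoting protein, and Dpysl4 (1.06), and 8 lower. The lower ones were led by Dpysl3 (-3.48) and Dcx (-2.22), the doublecortin gene of migrating and young neurons. Against Micro-PVM 21 were higher, led by Dpysl3 (3.68) and Crmp1 (3.47), and 8 lower, led by Nav2 (-0.94) and Nav3 (-0.75). The list's median log2 fold change was 0.16 for L5 PT, 0.24 for Pvalb and -0.06 for Unknown, and that of all genes was 0.01, 0.03 and 0.03. The 7 tested members had medians of 0.49, 0.98 and -1.06 there. The 0.98 is the value of Map1b itself. The Pvalb comparison was chosen with the levels of Stmn2 and Map1b known, so that median is a description and no support.

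Tubulin-modifying and severing enzymes numbered 23, all tested between labels. In the same order of comparisons 13.0%, 21.7%, 21.7%, 34.8% and 65.2% of them were called, which is near the shares of all genes. L5 PT had 3 higher and none lower, led by Vash2 (1.70), a tubulin carboxypeptidase that removes the terminal tyrosine, and Ttll7 (0.61), a polyglutamylase. Pvalb had 4 higher, led by Vash2 (2.10) and Ttll1 (1.16), and 1 lower, Agbl4 (-0.52), a deglutamylase. Unknown nuclei had 6 lower, led by Agbl4 (-2.48) and Vash2 (-2.35), and 2 higher, Vash1 (1.54) and Agtpbp1 (0.53). Inhibitory neurons had 3 higher, led by Vash2 (1.63), and 2 lower, led by Agbl4 (-1.03). Against Micro-PVM 12 were higher, led by Ttll11 (3.52) and Vash2 (2.85), and 3 lower, led by Fignl2 (-5.99).

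Of 5 neurofilament genes 4 were tested. Nefm was higher in L5 PT (1.91) and lower in inhibitory neurons (-1.86), Nefh (3.45) and Nefm (0.81) were higher in Pvalb, and Nefl (1.98) and Nefm (0.44) were higher in Unknown. Of 14 other tubulin genes only 4 could be tested, and Tuba4a (1.55) and Tubd1 (1.14) were higher in Unknown. With an Atf3 UMI, 1 MAP gene, Nav3 (-0.49), and 1 enzyme gene, Agbl4 (-0.37), were lower and none of these lists had a gene called higher.

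Genes whose levels ran most like a member over the 18 neuronal sums, each library centred on its own mean, are given as a description. For Stmn2 they were Limk1 (r = 0.91), Cttn (0.88) and Sdcbp (0.86), and for Map1b Mndal (0.93), Atp13a3 (0.93) and Ank2 (0.90). For Stmn1 they were Dram1 (0.97), Tom1l1 (0.95) and Kbtbd2 (0.94), for Stmn3 Zfp64 (0.85), Plcb1 (0.84) and Kcna1 (0.82), and for Stmn4 Gm20388 (0.84), Tcirg1 (0.84) and Mdm2 (0.83). Tuba1a and Tubb2a, at a few UMIs a sum, had Vps37c (0.86), Poc5 (0.85) and Cdan1 (0.85), and Socs6 (0.84), Syne2 (0.83) and Prss23 (0.82). Between stathmins r ran from -0.35 (Stmn1 with Stmn2) to 0.34 (Stmn2 with Stmn3), so no pair of stathmins ran closely together. All r values of Stmn1 include the male Vip sum, where it had 0 UMIs, and the weight of that sum in them was not tested.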

How the data were processed

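Single-nucleus 3′ RNA was sequenced from 2 GFP+ sorted pools (male and female). The authors aligned reads to a GRCm38 pre-mRNA reference and deposited UMI counts per gene and barcode; per the file headers the filtered matrices come from Cell Ranger 7.0.1 (male) and 7.0.0 (female), whereas the submitters' processing notes name 3.1.0. The authors also deposited a table of nuclei with cluster, subclass label and the percent of mitochondrial UMIs, from Seurat; its barcodes join it to the matrices. The authors' combined count table was not used.

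From the counts, UMIs were summed per library and label (22 sums, 11 labels; 5 neuronal labels under 50 nuclei, with 81 nuclei, were left out), and edgeR 4.0.16 (TMM, filterByExpr, glmQLFit, R 4.3.3) was fitted on all sums together, with a biological coefficient of variation of 0.176. The fit was checked on simulated counts with planted changes. Values for a library alone are plain means of log2 ratios over labels, with 0.5 CPM added and no test. Doublets were not called and were kept. Members and lists were chosen with earlier results of these data known. All 9 members are named, with the 2 called list genes of largest change each way and the 3 genes most like each member. Male and female sums of a label differ in shared ways (r of the male minus female differences between labels, over 55 pairs, 0.03 to 0.40, median 0.14), and a library's sums come from the same animals. Gene positions and sequences are from GENCODE vM21 (GRCm38). Intervals and floors cover counting error only. Alternatives were DESeq2 1.42.0, RLE size factors, no filter, the library as a block, each library left out, each sum less its estimated share of the near-empty profile (the profile of uncalled barcodes with at most 100 UMIs, scaled on marker genes of the other class), nuclei with 2 or 5 marker UMIs of the other class left out, thinning, and limits of 6000 genes and 5% mitochondrial UMIs.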

Additional observations from a re-analysis of the deposited data

Results flagged for a closer look

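Nuclei outside the neuronal labels held some members above the Micro-PVM level, with the exact Poisson interval of each library above it. In Oligo-labelled nuclei (26 and 42) Stmn4 stood at 333 and 193 CPM (18 and 38 UMIs, mean 263 CPM), within or above the neuronal range, against 36.5 and 12.4 CPM in Micro-PVM and 321 and 177 CPM in near-empty barcodes; their oligodendrocyte markers summed to 9874 and 7919 CPM and their neuron markers to 1905 and 1189 CPM, no more than in Micro-PVM (2531 and 1465 CPM). Stmn1 was at 74.0 and 61.0 CPM there (4 and 12 UMIs, mean 67.5 CPM). Map1b averaged 280 CPM in VLMC-labelled nuclei (292 and 269 CPM) and 469 CPM in SMC-Peri-labelled nuclei (295 and 643 CPM), against 151 and 101 CPM in Micro-PVM and, higher than all of these, 654 and 649 CPM in near-empty barcodes. Tubb2a averaged 16.9 CPM in Astro-labelled nuclei, on 3 and 7 UMIs (18.6 and 15.3 CPM, against 24.8 and 4.35 CPM in near-empty barcodes). The part of free RNA in these values was not tested.

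In 4 cases the libraries had opposite signs, and the difference was not tested. For Atf3 UMI against none these were Map1b (-0.11 male, 0.23 female, difference -0.34), Stmn1 (0.03 and -0.21, difference 0.24) and Stmn3 (-0.14 and 0.04, difference -0.18), and for Pvalb against other neurons Stmn4 (-0.10 and 0.24, difference -0.34). These are plain means of log2 ratios over labels, and no such value was called in the fit.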

How the results depend on the processing

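Of 321 log2 fold changes of single members recomputed under alternatives, 280 kept their direction and their side of the threshold. Members called in L5 PT fell from 2 to 1 with the near-empty profile subtracted and to 0 without nuclei of 2 or more marker UMIs; in inhibitory neurons from 3 to 1 and 0; in Pvalb from 2 to 1 and 0, and rose to 4 without the filter on low counts and to 4 with the replicate block. In Unknown 4 fell to 2 without those nuclei. The 2 members called in Pvalb were Stmn2 and Map1b, whose levels were known when that comparison was chosen. The replicate block changed no other member count. Over all genes the Pvalb calls became 2254 of 10610 with the block and 1829 of 23364 without the filter. Over all genes, the calls for L5 PT, inhibitory, Pvalb, Unknown and Micro-PVM (1163, 2188, 1728, 3691 and 6859) became 234, 969, 499, 2095 and 4368 with the profile subtracted, 104, 351, 232, 912 and 3041 without nuclei of 2 marker UMIs, and 529, 870, 742, 1925 and 4091 with thinning. Without nuclei of 5 marker UMIs, a limit added after seeing the data, the first 4 became 661, 1282, 958 and 2446. The 325 calls for Atf3 became 7, 96 and 89 without nuclei of 2 and of 5 marker UMIs and with thinning. Leaving out nuclei and thinning leave fewer UMIs (4887, 8210 and 6046 genes tested between labels); other causes were not tested.

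Signs turned for 16 values, among them the called 0.93 of Stmn1 against Micro-PVM and the 0.57 of Stmn3 in Pvalb, which passed with the replicate block; none of the 16 passed after the turn. Without nuclei of 2 marker UMIs, Stmn3 stood at -0.052 and Stmn4 at -0.18 in L5 PT, Stmn3 at -0.12 in inhibitory and -0.12 in Pvalb, Map1b at -0.078 in Unknown, Stmn1 at -0.13 against Micro-PVM, and Stmn2 at -0.23 and Stmn4 at -0.015 with an Atf3 UMI. Without nuclei of 5, Stmn1 stood at 0.19 in L5 PT and -0.10 with Atf3, and Stmn4 at -0.084 in Pvalb. Thinning gave Stmn4 -0.25 in L5 PT and Stmn3 -0.33 in inhibitory neurons. DESeq2 gave Stmn4 -0.00070 in Pvalb and Tubb2a 0.056 with Atf3, and no replicate block gave Tubb2a 0.035.

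Members with a neuronal share above Micro-PVM in both libraries numbered 4 at 1500 and at 2300 UMIs and 9 without thinning; with 1 library the count ran from 4 to 7. Tubulins had 21 to 97 UMIs in the pooled neurons of a library, and what holds them low was not tested.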
